A study of Mus musculus with 15 samples.

Results

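A human-like bile acid pool, in which 90% of the bile acids carried a 12α-hydroxyl group, was set against vehicle in primary mouse ileal organoids, which are epithelial cultures grown from the crypts of the small intestine. The comparison took the 3 libraries labelled H90 (a, b and c) and the 3 labelled vehicle (a, b and c), 6 of the study's 15 libraries, and tested 13159 of the 23420 genes in the count files. H90 organoids received the pool in DMEM with 0.2% albumin for 24 h, and vehicle organoids received the same medium without bile acids. Organoids of both groups came from ileal crypts of C57BL/6 mice. They were at passage 2, were grown in Matrigel with IntestiCult medium, had been split at day 10, and were broken open by pipetting at day 14 so that the treatment reached the luminal side. The bile acids in the pool and their dose are not given in the sources used here. Another group of 3 libraries, H10, was handled alike and received a human-like pool with 10% of its bile acids 12α-hydroxylated. It serves below to show where the response to H90 differed from that to a related mixture. The labels do not say whether a, b and c were separate animals or separate cultures, so the p-values measure only the spread between these samples, which may be technical.

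Bile acids are made from cholesterol in the liver, and the enzyme that adds the 12α-hydroxyl group decides how much of the pool is cholic acid and its product deoxycholic acid. In the ileum they enter enterocytes through the apical transporter Slc10a2, are bound in the cytosol by Fabp6, and leave through the basolateral exporter made of Slc51a and Slc51b. Inside the cell they activate the nuclear receptor FXR, encoded by Nr1h4, whose classic ileal targets are Fabp6, the repressor Nr0b2 (SHP), the exporter subunits and Fgf15, the hormone that tells the liver to make less bile acid. FXR binds, with its partner RXR, an inverted repeat called IR1. The fatty acid receptor PPARα binds a direct repeat called DR1.

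Among genes with a mean of at least 2 CPM (counts scaled to a common library total by TMM) and with groups that did not overlap, the 3 largest rises in H90 were those of Fabp6, Nr0b2 and Fgf15. Fabp6 stood at 4463, 5390 and 5199 CPM in H90 a, b and c, against 61.7, 46.1 and 62.4 CPM in vehicle a, b and c. That is a log2 difference of 6.47 (SE 0.13, edgeR quasi-likelihood test, Benjamini-Hochberg adjusted p = 8.51e-12 over all tested genes). No H90 library came near a vehicle library for this gene. Nr0b2, which is scarce in these cultures, had 5.91, 8.03 and 5.08 CPM in H90 and 0.641, 0 and 0.215 CPM in vehicle libraries (log2 4.74, SE 0.40, edgeR adjusted p = 9.93e-10). Vehicle b held no read of it. Fgf15 had 345, 413 and 375 CPM in H90 and 14.4, 17 and 18.9 CPM in vehicle libraries, 22.3 times as much, and the groups were far apart. Both subunits of the exporter rose, Slc51b to 335, 393 and 377 CPM in H90, against 50.04, 53.6 and 54.7 CPM in vehicle, and Slc51a to 720.5, 806 and 792 CPM in H90, against 184, 189 and 180.1 CPM in vehicle. Their log2 differences were 2.80 (SE 0.05) and 2.07 (SE 0.05), with edgeR adjusted p = 4.8e-31 and 4.74e-29. No groups overlapped for these 5 genes.

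Other members of the bile acid list moved less. Abcb1a, a drug efflux pump of the apical membrane, rose by 0.48 (SE 0.05) on the log2 scale. Slc30a10, a manganese exporter, had 31.2, 33 and 33.8 CPM in H90 and 15.2, 18.1 and 13.1 CPM in vehicle libraries (log2 1.07, SE 0.14, edgeR adjusted p = 1.7e-05). The receptor gene Nr1h4 itself stood at 120.3, 129.6 and 131 CPM in H90 and 124, 120.1 and 117 CPM in vehicle libraries, and the groups overlapped (log2 0.07, 95% interval -0.04 to 0.18, edgeR adjusted p = 0.366). The importer Slc10a2 had 43, 49.8 and 35.5 CPM in H90 and 56.2, 71.2 and 57 CPM in vehicle libraries. Its log2 difference of -0.52 passed in the full model (edgeR adjusted p = 0.0178). The call was lost without H90 a (log2 -0.52, edgeR adjusted p = 0.0528), without H90 c (0.076) and without vehicle b (0.0541). Of the 24 members tested, 8 were higher, 3 were lower (Slc10a2, the nuclear receptor Nr5a2 and the organic anion transporter Slco2b1) and 13 did not pass. The call of Nr5a2 was lost without H90 b (edgeR adjusted p = 0.0857), vehicle a (0.0705) or vehicle b (0.0617), and that of Slco2b1 without any 1 of the 6 libraries (0.0595 to 0.11). With H90 a as the only H90 library, the log2 difference was -0.52 for Slc10a2. It was -0.16 for Nr5a2 and -0.35 for Slco2b1, against -0.23 and -0.34 in the full model. The rises held in every alternative that was run, 8 or 9 members each time.

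**Figure D1:**
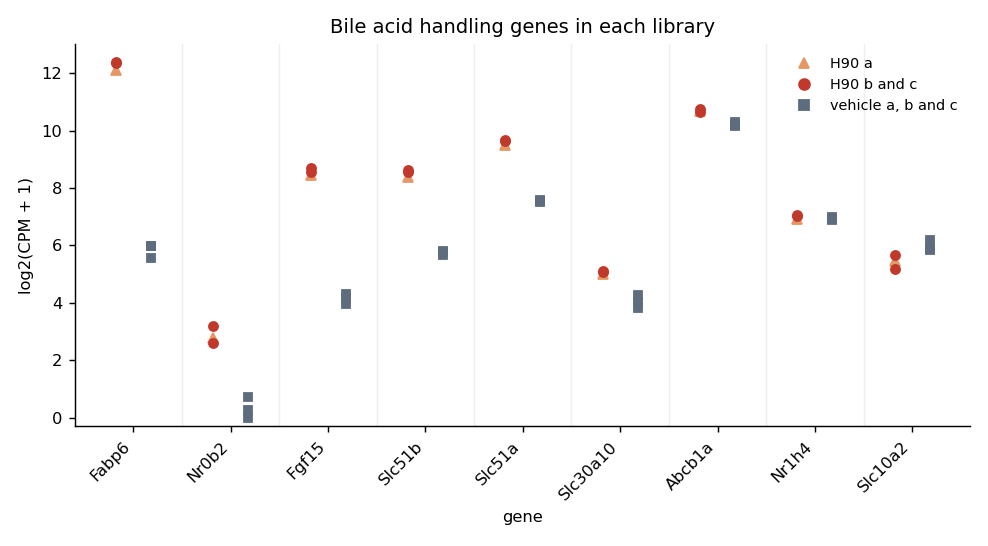
Level of 9 bile acid genes in each library, as log2(CPM + 1). Each gene has the 3 H90 libraries on the left (triangle for H90 a, circles for H90 b and c) and the 3 vehicle libraries on the right (squares). The first 7 genes lay higher in all H90 libraries than in all vehicle libraries, Nr1h4 overlapped, and Slc10a2 lay lower.

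Promoters were read from RefSeq's mouse table (GRCm38.p6), which gave a window for 9799 of the 13159 tested genes. The 250 bases before each start were searched on both strands for IR1 (AGGTCANTGACCT) and for DR1 (AGGTCANAGGTCA, or TGACCTNTGACCT on the other strand), with N any base and up to 2 mismatches among the 12 fixed letters. Both motifs share the unit AGGTCA, so 1 window can match both. The window of Fabp6, the largest of these rises, holds an IR1 match, in capitals in this stretch of chr11:43601713-43601812, written in the direction of the gene, which lies on the minus strand:
Fabp6: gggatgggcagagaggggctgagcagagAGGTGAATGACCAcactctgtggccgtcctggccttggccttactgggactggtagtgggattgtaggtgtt
IR1 matches of this quality occur in 0.959% of all 32851 promoter windows, and in 1.06% of the tested genes that have a window (104 of 9799). They occur in 1.66% of the genes higher in H90 that have a window (19 of 1142) and in 0.494% of those lower in H90 (5 of 1013). The windows of Nr0b2, Slc51a and Slc51b hold no match within 2 mismatches, and Fgf15 was not matched to a window.

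Across all genes, 2840 of 13159 passed the test at an adjusted p under 0.05, which is 21.6%, with 1542 higher in H90 (11.7%) and 1298 lower (9.86%). With library size as the only scaling 3084 passed and 42.5% of them were higher, against 54.3% with the main scaling. The median log2 difference of all tested genes was -0.00885. Most changes were small. At least 2-fold, 221 genes were higher and 48 lower, and at least 4-fold, 62 were higher and 12 lower. The 3 values of H90 and the 3 of vehicle did not overlap for 34.4% of all tested genes, and for 2664 of the 2840 that passed.

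H90 a differed from H90 b and c in transcripts of other tissues, so each call was also made without it and with it alone against the 3 vehicle libraries. Mup20, a urinary protein of the liver, had 29.2, 0.434 and 0.339 CPM in H90 a, b and c and 25.1, 24.9 and 21.6 CPM in vehicle a, b and c, so H90 a looked like vehicle and the other H90 libraries did not. Col1a1, a collagen of fibroblasts, ran the other way, with 0, 5.58 and 8.21 CPM in H90 and 0, 0.0683 and 0 CPM in vehicle. The 32 hepatocyte markers summed to 846 to 1180 CPM in H90 and to 1450 to 1600 CPM in vehicle libraries, with Mup2 at 0 in all 6. Cps1 and Cyp2c29, which gave most of that sum, are also made by intestinal epithelium. Of 29 hepatocyte markers tested, 2 were lower in H90, against 20 without H90 a. Mesenchymal markers summed to 17.9 to 23.6 CPM in H90 and 10.1 to 13.3 CPM in vehicle, and immune markers to 8.56 to 11.5 CPM in H90 and 10.5 to 10.9 CPM in vehicle with 9 of 24 at 0, the T cell genes Cd3d, Cd4 and Cd8a among them. The 34 enterocyte genes summed to 26060, 27300 and 26890 CPM in H90 and 28070, 30350 and 26000 CPM in vehicle. Total counts were 24084774, 17451139 and 11245807 in H90 and 15712320, 27136476 and 21530317 in vehicle. Genes with exactly 1 count numbered 297, 261 and 221 in H90, 552, 479 and 506 in vehicle and 564, 570 and 450 in H10. In the study's remaining groups, M10 had 246, 241 and 213 such genes and M90 had 603, 466 and 542. No H90 library reached the range of vehicle or H10, so in this comparison the low count cannot be told apart from the H90 treatment. The part that the other differences play in the results was not tested.

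Without H90 a, 2480 of the 2840 calls remained in the same direction. With H90 a alone, 1157 remained out of 1220 then called, with the spread taken from the other groups. Both conditions held for 1055 genes. Of the 269 genes called at 2-fold or more, 244 remained without H90 a and 170 with H90 a alone. A model with a term for the 2 kinds of library (Mup20 over 10 CPM or not) takes its H90 difference from H90 a as well, and it kept 1033 calls.

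**Figure D2:**
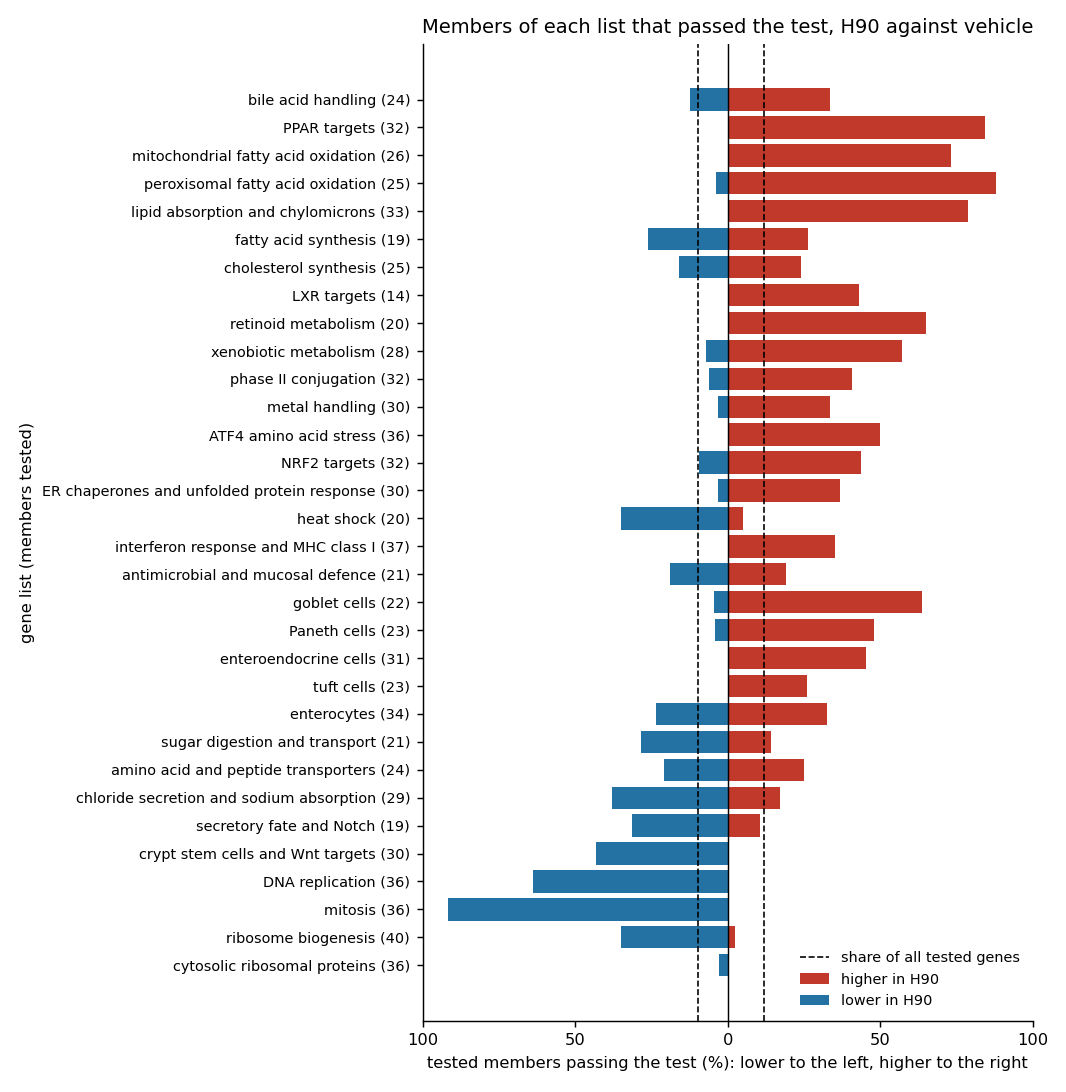
Share of the tested members of 32 gene lists that passed the edgeR test in H90 against vehicle, with members higher in H90 drawn to the right and members lower in H90 to the left. The number in brackets is the number of members tested, and the dashed lines mark the shares of all tested genes, 11.7% higher and 9.86% lower. PPARα targets, fatty acid oxidation and lipid absorption reached far past the right line, and DNA replication and mitosis far past the left one.

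Genes of fatty acid use formed the broadest rise. Of 32 tested PPARα targets, 27 were higher in H90 and 0 were lower, with a median log2 difference of 0.77. The count was 27 without H90 a and 27 with H90 a alone. Mitochondrial fatty acid oxidation had 19 of 26 members higher and 0 lower (median 0.48), a count that did not change under any alternative. Peroxisomal oxidation had 22 of 25 higher and 1 lower (median 0.53), with 15 higher from H90 a alone.

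Cyp4a10, the fatty acid ω-hydroxylase used as a standard readout of PPARα, had 16.9, 16 and 12.2 CPM in H90 and 0.699, 0.785 and 1.12 CPM in vehicle libraries (log2 4.11, SE 0.29, edgeR adjusted p = 1.13e-09). Fabp1, the liver-type fatty acid binding protein, had 1333, 1401 and 1465 CPM in H90 and 122, 149.9 and 134 CPM in vehicle libraries (log2 3.37, SE 0.14, edgeR adjusted p = 1.49e-08). Pdk4, the kinase that turns cells from glucose to fat oxidation, had 28.7, 28.1 and 23 CPM in H90 and 1.4, 4.71 and 2.84 CPM in vehicle libraries. The vehicle values of Pdk4 scattered, and all lay well below the H90 values (log2 3.06, SE 0.29, edgeR adjusted p = 1.44e-05). Acaa1b, a peroxisomal thiolase, had 86.5, 102 and 95.7 CPM in H90 and 10.4, 12.3 and 12.7 CPM in vehicle libraries, 7.94 times as much. For each of these 4 genes every H90 library lay above every vehicle library. Creb3l3, a liver and gut transcription factor of lipid metabolism, rose by 1.49 (SE 0.06) on the log2 scale, the fatty acid carrier Slc25a20 of the mitochondrial membrane by 0.91 (SE 0.06) and the pantetheinase Vnn1 by 1.07 (SE 0.07).

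The enzymes inside the mitochondrion rose by smaller and very even steps. Acadvl, the very long chain acyl-CoA dehydrogenase, had 309.8, 336 and 335 CPM in H90 and 178, 184 and 184 CPM in vehicle libraries (log2 0.84, SE 0.05, edgeR adjusted p = 1.14e-16). Hadha, the α subunit of the trifunctional protein, rose by 0.62 (SE 0.04), the thiolase Acaa2 by 0.71 (SE 0.05) and the long chain dehydrogenase Acadl by 0.70 (SE 0.05). The groups did not overlap for any of these enzymes. The medium chain dehydrogenase Acadm stood at 190.2, 216 and 188 CPM in H90 and 183, 189.7 and 182 CPM in vehicle and did not pass (log2 0.10, edgeR adjusted p = 0.185). In the peroxisome, Hsd17b4, the bifunctional enzyme, rose by 0.83 (SE 0.05) and the fatty acid importer Abcd3 by 0.85 (SE 0.05). Acox2, the peroxisomal oxidase that acts on branched chains and on bile acid precursors, was the 1 peroxisomal member that fell, to 56.3, 58.2 and 57.9 CPM in H90, against 76.4, 78.8 and 73.1 CPM in vehicle (log2 -0.41, SE 0.07, edgeR adjusted p = 9.24e-06).

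Of 7 ketone body genes tested, 1 was higher in H90, 2 were lower and 4 did not pass. With RLE scaling, the stricter filter, DESeq2 or without vehicle b, 2 were higher. Summed over the list, ketone body genes had 1204, 1159 and 1219 CPM in H90 and 851, 891 and 887 CPM in vehicle libraries. The sum thus rose although 2 members fell. The lower ones were Oxct1 and Acat1. Oxct1, which lets cells burn ketone bodies, had 270.3, 276 and 254 CPM in H90 and 346, 355 and 346 CPM in vehicle libraries and fell by 1.31-fold. Acat1, the thiolase that serves both directions, fell to 105, 105 and 105 CPM in H90, against 134, 126 and 134 CPM in vehicle. The groups of both genes did not overlap.

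Most genes for uptake and packing of dietary fat were higher as well. Of 33 genes for lipid absorption and chylomicrons, 26 were higher and 0 were lower (median log2 0.41), and 22 were higher with H90 a alone. Plb1, the brush border phospholipase, had 22.8, 25.8 and 25.8 CPM in H90 and 3.09, 4.17 and 3.27 CPM in vehicle libraries (log2 2.78, SE 0.13, edgeR adjusted p = 1.24e-17). Mogat2, which rebuilds triglyceride in enterocytes, rose by 0.98 (SE 0.06), the acyltransferase Agpat2 by 0.75 (SE 0.05) and the microsomal lipid transfer protein Mttp by 0.53 (SE 0.04). Apoa1, the main protein of high density lipoprotein, stood at 1299, 1396 and 1522 CPM in H90 and 1402, 1569 and 1497 CPM in vehicle, and did not pass (log2 -0.08, edgeR adjusted p = 0.392).

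Synthesis of fatty acids did not move as 1 group, with 5 members higher and 5 lower of 19. Acacb, the acetyl-CoA carboxylase at the mitochondrial surface whose product restrains fatty acid entry, had 29.3, 36.4 and 28.1 CPM in H90 and 2.1, 1.57 and 2.54 CPM in vehicle libraries (log2 3.94, SE 0.16, edgeR adjusted p = 7.51e-21). The desaturase Scd1 and malic enzyme Me1 rose by 0.97 (SE 0.05) and 1.20 (SE 0.09). The desaturases of polyunsaturated fatty acids went the other way: Fads1 had 29.8, 22 and 27.4 CPM in H90 and 53, 55.4 and 61.1 CPM in vehicle (log2 -1.10, SE 0.12, edgeR adjusted p = 7.08e-09), and Fads2 had 121, 112 and 122 CPM in H90 and 188, 175 and 196 CPM in vehicle. Both were lower in every H90 library than in any vehicle library. Fasn, the fatty acid synthase, did not pass (log2 -0.09, 95% interval -0.20 to 0.01), though it passed as lower without H90 c. Cholesterol synthesis had 6 members higher and 4 lower of 25 with a median of 0.07.

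Genes of vitamin A handling rose alongside. Of 20 retinoid genes tested, 13 were higher and 0 were lower (median log2 0.53), and 10 were higher with H90 a alone. Adh4, an alcohol dehydrogenase that oxidises retinol, had 112, 98.8 and 94.3 CPM in H90 and 14.9, 16.9 and 15 CPM in vehicle libraries (log2 2.70, SE 0.07, edgeR adjusted p = 1.1e-26). Bco2, which cleaves carotenoids in mitochondria, had 87.5, 90.9 and 87.8 CPM in H90 and 30.8, 33.6 and 36.1 CPM in vehicle libraries. All H90 values of both genes were far above vehicle. Retinol saturase Retsat rose by 1.32 (SE 0.07) and Rbp2, the retinol binding protein of enterocytes, by 0.88 (SE 0.07). Isx, the gut homeobox factor that represses carotene uptake and cleavage, had 12.6, 15.8 and 15.7 CPM in H90 and 1.81, 3.93 and 3.44 CPM in vehicle libraries (log2 2.20, SE 0.27, edgeR adjusted p = 2.32e-05). Its known target Bcmo1, the carotene cleavage enzyme, stood at 45.4, 42.9 and 55.3 CPM in H90 and 47.5, 46.5 and 46.4 CPM in vehicle with overlapping groups.

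DR1 matches were found in the windows of several genes of these groups, and those of Fabp1 (chr6:71199769-71199868) and Rbp2 (chr9:98490436-98490535) are shown because both genes are abundant in enterocytes and rose. Both lie on the plus strand, and the match is in capitals:
Fabp1: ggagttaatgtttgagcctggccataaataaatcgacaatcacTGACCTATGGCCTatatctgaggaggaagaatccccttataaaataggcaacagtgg
Rbp2: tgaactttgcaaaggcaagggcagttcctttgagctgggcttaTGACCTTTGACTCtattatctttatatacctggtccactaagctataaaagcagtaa
The match of Fabp1 has 1 mismatch and that of Rbp2 has 2. Of all windows, 3.24% hold a DR1 match of this quality, as do 3.34% of the tested genes with a window (327 of 9799). A gene with several listed starts counts once if any of its windows holds a match. Of the PPARα targets higher in H90, 4 of the 20 with a window hold a DR1 match and 2 hold an IR1 match, and of the 10 such retinoid genes 4 hold a DR1 match and 2 an IR1 match. The DR1 share was 4.9% among all genes higher in H90 with a window and 3.36% among those lower. These counts describe letters in a window, not binding.

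Drug and metal genes that rose had among them single genes with large steps. Of 28 xenobiotic genes 16 were higher and 2 lower (median log2 0.20), and 10 were higher with H90 a alone. Akr1b7, an aldo-keto reductase known as a target of both FXR and the xenobiotic receptor PXR in mice, had 37.5, 37.2 and 36.8 CPM in H90 and 6.41, 8.44 and 6.06 CPM in vehicle libraries (log2 2.40, SE 0.10, edgeR adjusted p = 1.61e-20). Por, which feeds electrons to all microsomal cytochromes P450, rose by 0.93 (SE 0.04), the carboxylesterase Ces2a by 0.93 (SE 0.04) and PXR itself, Nr1i2, by 0.50 (SE 0.06). The cytochromes Cyp2c29 and Cyp2b10 fell by 2-fold and 1.46-fold, and Cyp2b10 did not pass with H90 a alone. Near-identical cytochrome genes can share reads, and how such reads were counted is not given in the sources used here.

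Trpm6, the magnesium channel of the apical membrane, had 59.9, 60.4 and 60.4 CPM in H90 and 10.2, 13.2 and 9.63 CPM in vehicle libraries (log2 2.44, SE 0.09, edgeR adjusted p = 1.14e-22). The H90 values were nearly equal and far above vehicle. The metallothioneins Mt1 and Mt2, which hold zinc, rose by 0.74 (SE 0.05) and 0.80 (SE 0.04), the zinc exporter Slc30a1 by 0.86 (SE 0.07) and the transferrin receptor Tfrc by 0.53 (SE 0.04). In all, 10 of 30 metal genes were higher and 1 was lower, the manganese and calcium pump Atp2c1, whose call was lost without vehicle a (edgeR adjusted p = 0.0525). Vitamin D receptor targets were divided, 5 higher and 4 lower of 12, with 2 lower without H90 b or without vehicle b. S100g, the calcium binding protein of enterocytes, had 102, 121 and 127 CPM in H90 and 42, 43.4 and 36.5 CPM in vehicle libraries (log2 1.51, SE 0.12, edgeR adjusted p = 1.97e-06). Cyp24a1, the enzyme that destroys active vitamin D, was scarce at 0.431, 0.759 and 0.762 CPM in H90 and 0.117, 0.171 and 0.387 CPM in vehicle libraries. Its call as higher (edgeR adjusted p = 0.0221) was lost without H90 b (0.114), H90 c (0.0824), vehicle a (0.0803) or vehicle b (0.12). With H90 a alone its log2 difference was 0.89, against 1.39 in the full model.

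**Figure D3:**
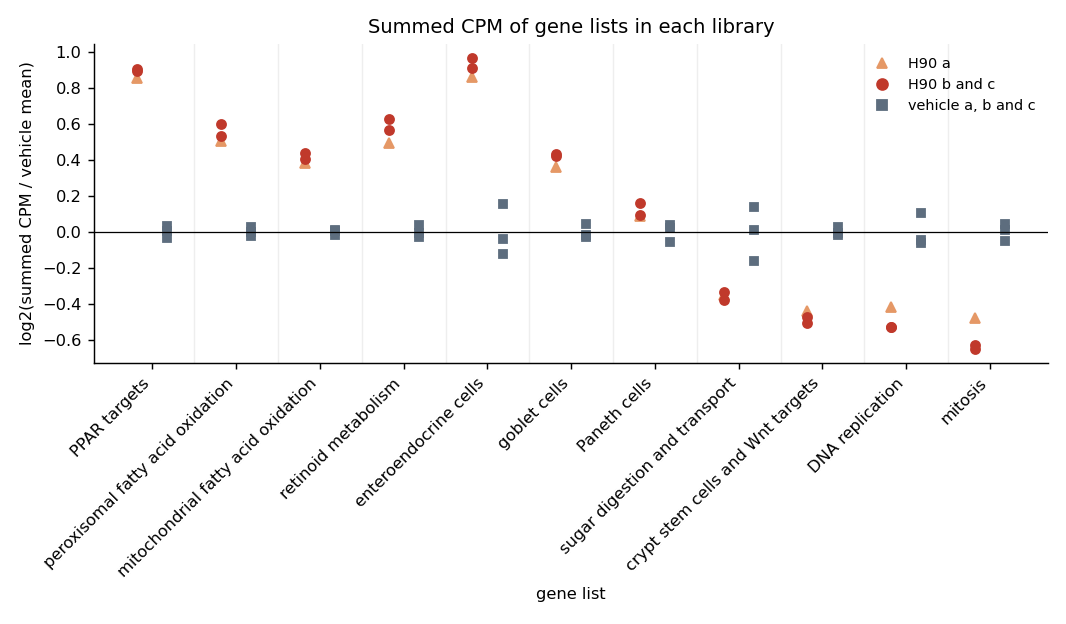
Summed CPM of 11 gene lists in each library, as log2 of the ratio to the mean of the 3 vehicle libraries. Each list has the H90 libraries on the left (triangle for H90 a, circles for H90 b and c) and the vehicle libraries on the right (squares). All H90 sums of the first 7 lists lay above all vehicle sums and those of the last 4 below. H90 a was the H90 library nearest to vehicle for every list except sugar digestion and transport.

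Cell division genes were lower in H90. Of 36 mitosis genes, 33 were lower and 0 were higher (median log2 -0.61), and of 36 DNA replication genes 23 were lower and 0 were higher (median -0.49). Summed over the list, mitosis genes had 1922, 1735 and 1708 CPM in H90 and 2695, 2584 and 2755 CPM in vehicle libraries. H90 a lay between the other H90 libraries and vehicle without reaching the vehicle range. With H90 a alone the median log2 difference was -0.494 for mitosis genes and -0.465 for replication genes. Without vehicle c, 14 replication genes were lower. Top2a, the topoisomerase of dividing cells, had 189, 152 and 154 CPM in H90 and 259, 243 and 253 CPM in vehicle (log2 -0.61, SE 0.07, edgeR adjusted p = 2.06e-08). Cdc20, which triggers anaphase, fell by 1.59-fold, Mcm6 of the replicative helicase by 1.62-fold and Rrm1 of ribonucleotide reductase by 1.62-fold. In bulk RNA, fewer cells of a type and less RNA per cell cannot be told apart.

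Stem cell genes that passed the test were also lower. Of 30 stem cell and Wnt target genes, 13 were lower and 0 were higher (median log2 -0.26), with 5 lower from H90 a alone, 8 without H90 b and 7 without vehicle c. Olfm4, the secreted marker of crypt stem cells, had 24.8, 18.6 and 16.2 CPM in H90 and 78.5, 78.5 and 87.4 CPM in vehicle libraries (log2 -2.02, SE 0.16, edgeR adjusted p = 5.94e-11). Smoc2 had 44.4, 47.3 and 46.2 CPM in H90 and 82.7, 79.3 and 87.8 CPM in vehicle, and Ccnd2, a cyclin of G1 phase, had 218, 202 and 199 CPM in H90 and 367, 345 and 340.4 CPM in vehicle. All 3 were lower in every H90 library, H90 a included. The Wnt feedback gene Axin2 fell by 1.51-fold with all 6 libraries but did not pass with H90 a alone. Genes of the Notch pathway had 6 lower and 2 higher of 19, with 3 lower without vehicle b. The higher ones were Spdef and Atoh1, factors of the secretory fate, and the call of Atoh1 was lost without any 1 library except H90 b (edgeR adjusted p = 0.0529 to 0.102). Nrarp, a Notch feedback gene, had 27.1, 31.3 and 19.2 CPM in H90 and 45.1, 42.2 and 48.8 CPM in vehicle (log2 -0.80, SE 0.14, edgeR adjusted p = 5.09e-05), while Notch1 fell by 1.6-fold and Hes1, the repressor that Notch switches on, by 1.45-fold. Ribosome biogenesis had 14 lower and 1 higher (Nop10) of 40 (median -0.22). With H90 a alone the median was -0.16, and Nop10 and most of the 14 did not pass. Without H90 b, H90 c, vehicle a or vehicle c in turn, 9, 8, 9 and 6 of its members were lower, and Nop10 was lost without H90 b (edgeR adjusted p = 0.07), H90 c (0.0791) or vehicle a (0.201). Of 36 cytosolic ribosomal proteins Rpl15 was lower and none was higher, while 4 were higher without H90 a and 7 without vehicle c.

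Members of the secretory lineages that passed were higher with 2 exceptions, and many did not pass. Goblet cells, which make mucus, had 14 of 22 genes higher and 1 lower (median log2 0.49), a count that stayed between 13 and 15 under all alternatives. Muc2, the main mucin, had 327, 334 and 374 CPM in H90 and 121, 136 and 149 CPM in vehicle libraries (log2 1.35, SE 0.09, edgeR adjusted p = 4.56e-08). The mucus lectin Zg16 had 178, 199 and 194 CPM in H90 and 72.3, 81.3 and 85.5 CPM in vehicle, and Tff3, the trefoil peptide, rose by 0.71 (SE 0.06). The member that was lower is listed as Clca1, a symbol older tables use for Clca3a1, and its call was lost without any 1 library except H90 b (edgeR adjusted p = 0.0513 to 0.109). The goblet cell gene gob-5 is listed as Clca3, which RefSeq gives as an older name of today's Clca1. It had 129, 137 and 122 CPM in H90 and 57.7, 67.1 and 58.7 CPM in vehicle libraries.

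Enteroendocrine cells, the hormone makers, had 14 of 31 genes higher and 0 lower (median log2 0.54), and 9 were higher with H90 a alone. Gcg, which encodes proglucagon and so GLP-1, had 972, 1062 and 981 CPM in H90 and 512, 444 and 431 CPM in vehicle libraries (log2 1.12, SE 0.05, edgeR adjusted p = 2.12e-17). Cck, the satiety hormone cholecystokinin, had 200, 207 and 209 CPM in H90 and 105, 108 and 106 CPM in vehicle, and secretin, Sct, had 37.2, 40.2 and 40.2 CPM in H90 and 18.8, 20.3 and 20.9 CPM in vehicle. The groups did not overlap for any of the 3 hormones. Neurog3, the factor that starts the lineage, stood at 2.86, 2.6 and 2.03 CPM in H90 and 3.03, 2.6 and 2.71 CPM in vehicle and overlapped (log2 -0.14, 95% interval -0.99 to 0.72). Reg4, which both the goblet and the enteroendocrine list hold, had 169, 178 and 192 CPM in H90 and 65.3, 52.8 and 55.3 CPM in vehicle libraries. Paneth cells, the antimicrobial cells of the crypt base, had 11 of 23 genes higher and 1 lower (median 0.64), with 5 higher from H90 a alone and 7 without vehicle b. The lower one was Guca2b, the peptide uroguanylin, and its call was lost without any 1 library except H90 c (edgeR adjusted p = 0.0529 to 0.115). Lyz1, their lysozyme, had 79.1, 83.8 and 72.6 CPM in H90 and 34.3, 40.4 and 54.9 CPM in vehicle (log2 0.86, SE 0.14, edgeR adjusted p = 0.000508). Tuft cells had 6 of 23 genes higher and 0 lower, Dclk1 among the higher (log2 0.59, SE 0.10).

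Absorptive enterocyte genes did not share a direction, with 11 higher and 8 lower of 34. The peptidase Ggt1 had 85, 98.1 and 94.8 CPM in H90 and 41.7, 47 and 44.9 CPM in vehicle, and Alpi, the intestinal alkaline phosphatase, had 323, 321 and 379.9 CPM in H90 and 197, 204 and 198 CPM in vehicle. Genes of sugar use leaned the other way, 6 lower and 3 higher of 21, with 3 lower from H90 a alone. Slc2a2, the basolateral glucose transporter, had 39.7, 45 and 34.5 CPM in H90 and 54, 63.7 and 50.3 CPM in vehicle libraries (log2 -0.49, SE 0.09, edgeR adjusted p = 8.31e-05). Of 29 genes for chloride secretion and sodium absorption, 11 were lower and 5 higher, with 2 or 3 higher without H90 b, H90 c, vehicle a or vehicle c. The chloride and bicarbonate exchanger Slc26a3 had 242, 250.5 and 235 CPM in H90 and 156, 150 and 148 CPM in vehicle. On the secretory side, the sodium, potassium and chloride cotransporter Slc12a2 had 113, 108 and 94.3 CPM in H90 and 173, 168 and 188 CPM in vehicle (log2 -0.74, SE 0.10, edgeR adjusted p = 6.51e-06), and the potassium channel Kcnq1 fell by 1.39-fold.

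**Figure D4:**
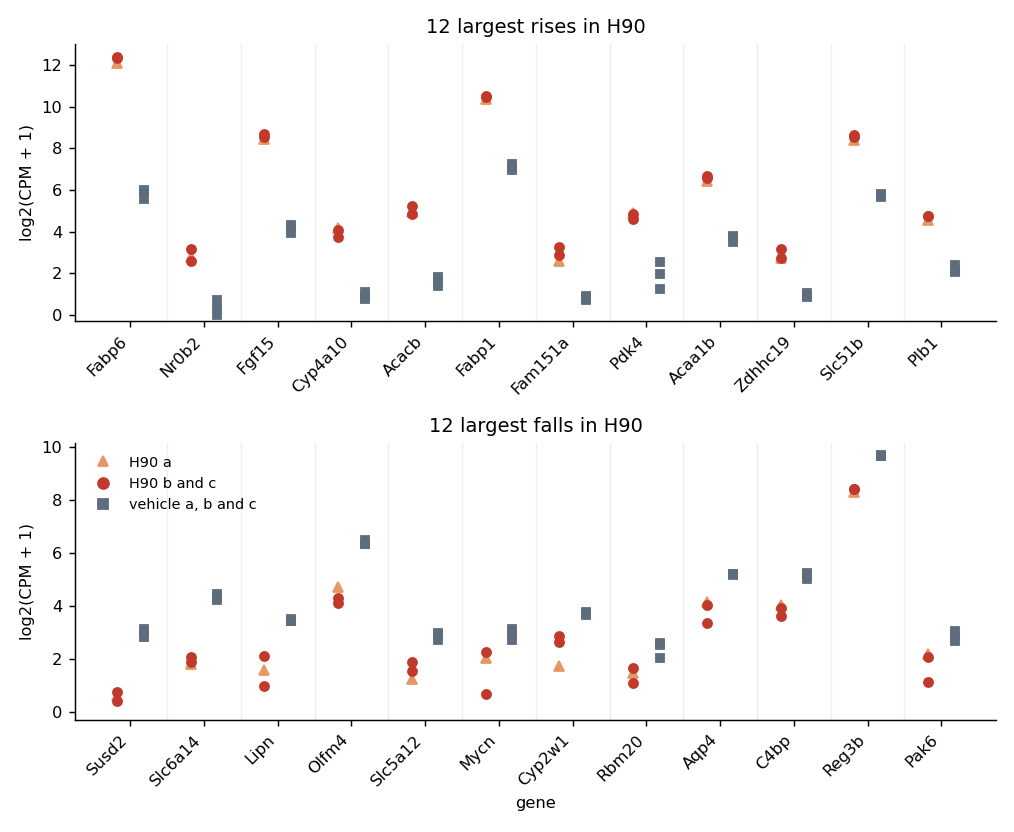
Level of the 12 genes with the largest rises (top) and the 12 with the largest falls (bottom) in each library, as log2(CPM + 1). Each gene has the H90 libraries on the left (triangle for H90 a, circles for H90 b and c) and the vehicle libraries on the right (squares). The groups lay apart for each of the 24 genes, which the choice of genes required.

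The 12 largest falls, with 3 predicted genes without a name passed over, included several membrane proteins. Susd2, a membrane protein with a sushi domain, had 0.509, 0.325 and 0.677 CPM in H90 and 6.99, 7.75 and 6.06 CPM in vehicle libraries (log2 -3.81, SE 0.39, edgeR adjusted p = 8.8e-10). Slc6a14, a transporter of neutral and cationic amino acids, had 2.51, 3.2 and 2.62 CPM in H90 and 17.7, 18.9 and 20.8 CPM in vehicle, and the lactate cotransporter Slc5a12 had 1.37, 1.9 and 2.62 CPM in H90 and 6.82, 6.63 and 5.55 CPM in vehicle. In each case every H90 library was below every vehicle library. Aqp4, a water channel, had 16.4, 15.2 and 9.23 CPM in H90 and 34.4, 35.5 and 35.9 CPM in vehicle (log2 -1.35, SE 0.18, edgeR adjusted p = 3.76e-07). The complement regulator C4bp had 15.2, 14.2 and 11.3 CPM in H90 and 34.8, 36.4 and 31 CPM in vehicle. The lipase Lipn, the transcription factor Mycn, the splicing factor Rbm20, the kinase Pak6 and the cytochrome Cyp2w1 completed the 12 with Olfm4 and Reg3b, and their log2 differences ran from -2.21 for Lipn to -1.22 for Pak6. Of these, Mycn, Rbm20 and Pak6 did not pass with H90 a alone. Without single libraries Mycn was lost for H90 b (edgeR adjusted p = 0.133), vehicle a (0.0645) and vehicle c (0.103), and Rbm20 for H90 c (0.0671), vehicle a (0.0784) and vehicle b (0.113).

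Among the largest rises, Fam151a and Zdhhc19 belonged to none of the 48 lists. Fam151a, a little studied gene, had 4.93, 6.24 and 8.72 CPM in H90 and 0.641, 0.854 and 0.774 CPM in vehicle libraries (log2 3.07, SE 0.29, edgeR adjusted p = 1.27e-10). Zdhhc19, a palmitoyltransferase, had 5.68, 5.69 and 7.96 CPM in H90 and 0.816, 0.854 and 1.03 CPM in vehicle (log2 2.81, SE 0.25, edgeR adjusted p = 2.89e-11). Zdhhc19 is the neighbour of Slc51a on chromosome 16 of GRCm38.p6. Their starts lie 8361 bases apart, the genes run away from each other on opposite strands, and RefSeq lists 0 genes between them.

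Stress pathways differed in direction. Of 36 genes of the ATF4 response to amino acid shortage 18 were higher and 0 lower (median log2 0.28). Chac1, a glutathione-degrading enzyme, had 29.4, 29.6 and 26.2 CPM in H90 and 14, 14.3 and 13.4 CPM in vehicle libraries (log2 1.03, SE 0.10, edgeR adjusted p = 7.57e-11), and Slc7a11, the cystine transporter, had 9.83, 13.4 and 11.5 CPM in H90 and 4.6, 4.41 and 4.26 CPM in vehicle. Ddit3 (CHOP) rose by 0.72 (SE 0.10). Chaperones of the endoplasmic reticulum had 11 higher and 1 lower of 30, with 4 higher from H90 a alone. The lower one, the stress sensor Ern1, was lost without H90 a (edgeR adjusted p = 0.061) or vehicle b (0.175). Heat shock genes leaned down, 7 lower and 1 higher of 20, with 4 lower without vehicle a and 2 with H90 a alone. The higher one, the cochaperone Dnaja1, was lost without H90 a, H90 c, vehicle b or vehicle c (edgeR adjusted p = 0.0518 to 0.0707). NRF2 targets had 14 higher and 3 lower (Gss, Txn1 and Akr1c13) of 32, led by Ephx1, the epoxide hydrolase, which rose by 0.74 (SE 0.05). Their median log2 difference was 0.10, and 0.06 with H90 a alone. In that fit fewer members passed, and Txn1 and Akr1c13 did not. Akr1c13 was lost without H90 a (edgeR adjusted p = 0.0524), vehicle a (0.0692) or vehicle c (0.102).

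Mucosal defence genes were split, 4 higher and 4 lower of 21, with 8 lower without H90 a. Reg3b, an antibacterial lectin, had 309, 335 and 334 CPM in H90 and 810.2, 824 and 796 CPM in vehicle libraries (log2 -1.31, SE 0.07, edgeR adjusted p = 1.01e-10). Nos2, the inducible nitric oxide synthase, ran the other way, with 280.2, 300 and 301 CPM in H90 and 97.3, 121 and 87 CPM in vehicle (log2 1.52, SE 0.12, edgeR adjusted p = 4.29e-06). Reg3g, the sister lectin of Reg3b, stood at 622, 599 and 642 CPM in H90 and 646, 638 and 685 CPM in vehicle and did not pass. Interferon and MHC class I genes had 13 higher and 0 lower of 37, with 8 higher without H90 b and 6 with H90 a alone. H2-Q1, a class I gene whose near copies can share its reads, had 16.6, 22.5 and 20.4 CPM in H90 and 5.71, 6.56 and 6.23 CPM in vehicle.

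H90 was also set against the H10 pool. Mup20 had 36.3, 23.1 and 24.7 CPM in H10, and Col1a1 had 0.108, 0 and 0.0392 CPM. By these genes the H10 libraries resembled vehicle and H90 a, and H90 b and c differed from H10. In other respects H90 a differed from H10 too. It had 13340 CPM of the ribosomal RNA precursor Rn45s, against 2147, 1877 and 1936 CPM in H10. Genes with exactly 1 count numbered 297 in H90 a and 564, 570 and 450 in H10. The gene and list differences from H10 given below use all 3 H90 libraries. The direct test of H90 against H10 called 4815 of 13159 genes, 36.6%, with 2398 higher and 2417 lower in H90. Without H90 a it called 4524 of 13401. The genes named next also differed between H90 and vehicle, and the same H90 libraries enter both tests, so the values of the groups are given side by side and no overlap between the tests is read as a result.

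For division genes H90 lay between H10 and vehicle, with all 36 mitosis and all 36 replication genes higher in H90 than in H10 (medians of the log2 difference 1.75 and 1.83). Top2a had 189, 152 and 154 CPM in H90 and 42.2, 34.2 and 36.5 CPM in H10. Olfm4 had 24.8, 18.6 and 16.2 CPM in H90 and 0.7, 0.26 and 0.431 CPM in H10 (log2 5.44, SE 0.27, edgeR adjusted p = 9.68e-16). Dmbt1, a mucosal scavenger protein, had 117, 121 and 125 CPM in H90, 16.4, 12.5 and 13.9 CPM in H10 and 222, 198 and 227 CPM in vehicle libraries. Kcne3, a potassium channel subunit of chloride-secreting cells, had 15.9, 20.9 and 18.5 CPM in H90, 2.8, 2.44 and 2.59 CPM in H10 and 27.6, 29.4 and 36.9 CPM in vehicle. For both genes H90 lay between H10 and vehicle. Myb, a progenitor transcription factor, had 40.4, 46.4 and 31.9 CPM in H90 and 7.17, 6.08 and 4.55 CPM in H10 (log2 2.76, SE 0.16, edgeR adjusted p = 7.91e-16). The RNAs Rmrp and Rpph1, described below, were also among the 6 genes highest over H10 (log2 3.035 and 2.745). They did not lie between the groups. Rmrp had 0.485, 0.728 and 0.549 CPM in H10 and Rpph1 0.862, 1.09 and 2.9 CPM, and every H90 library lay above all H10 and vehicle libraries.

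Of the 6 genes with the largest falls below H10, Cyp24a1 lay lowest. It had 0.431, 0.759 and 0.762 CPM in H90 and 223, 186 and 189.6 CPM in H10 (log2 -8.34, SE 0.14, edgeR adjusted p = 2.17e-29). S100g had 102, 121 and 127 CPM in H90 and 673, 644 and 724 CPM in H10, and Slc30a10 had 31.2, 33 and 33.8 CPM in H90 and 132, 113 and 123 CPM in H10. The remaining 3 were Clca3 (log2 -1.92), H2-Q1 (-1.74) and the AP-1 family member Jdp2 (-1.67). Of the 12 vitamin D receptor targets, 5 were lower and 1 was higher in H90 than in H10, beside 36.6% of all tested genes called in either direction. Fabp6 had 4463, 5390 and 5199 CPM in H90 and 6899, 7502 and 7605 CPM in H10 (log2 -0.55, SE 0.10, edgeR adjusted p = 0.00107), and Fgf15 had 345, 413 and 375 CPM in H90 and 961, 998 and 958 CPM in H10 (log2 -1.36, SE 0.07, edgeR adjusted p = 2.75e-11). Both lay above vehicle and below H10 in every H90 library.

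Most fatty acid genes that differed between the pools were lower in H90. Of all 13159 tested genes, 2417 were lower and 2398 higher in H90 than in H10, 36.6% in either direction. PPARα targets had 20 members lower and 2 higher in H90 than in H10 of 32, with a median difference of -0.29. Mitochondrial oxidation had 10 lower and 1 higher of 26 (median -0.11), and its share called was near that of all genes. Peroxisomal oxidation had 16 lower and 0 higher of 25 (median -0.31), and lipid absorption had 24 lower and 0 higher of 33 (median -0.33). Plb1 had 22.8, 25.8 and 25.8 CPM in H90 and 69.4, 79.2 and 77.8 CPM in H10 (log2 -1.61, SE 0.10, edgeR adjusted p = 8.65e-15), and Hsd17b4 had a log2 difference of -0.63 (SE 0.05). Acacb went the other way, with 29.3, 36.4 and 28.1 CPM in H90 and 24.4, 25.9 and 19.4 CPM in H10 (log2 0.44, SE 0.12, edgeR adjusted p = 0.00274). Cyp4a10 had 16.9, 16 and 12.2 CPM in H90 and 9.86, 15.9 and 11.2 CPM in H10, which did not pass (log2 0.31, SE 0.21, edgeR adjusted p = 0.283), and Fabp1 did not pass either (log2 0.07, SE 0.13). The zinc binding metallothioneins Mt1 and Mt2 were higher in H90 than in H10 by 0.38 (SE 0.05) and 0.54 (SE 0.04).

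**Figure D5:**
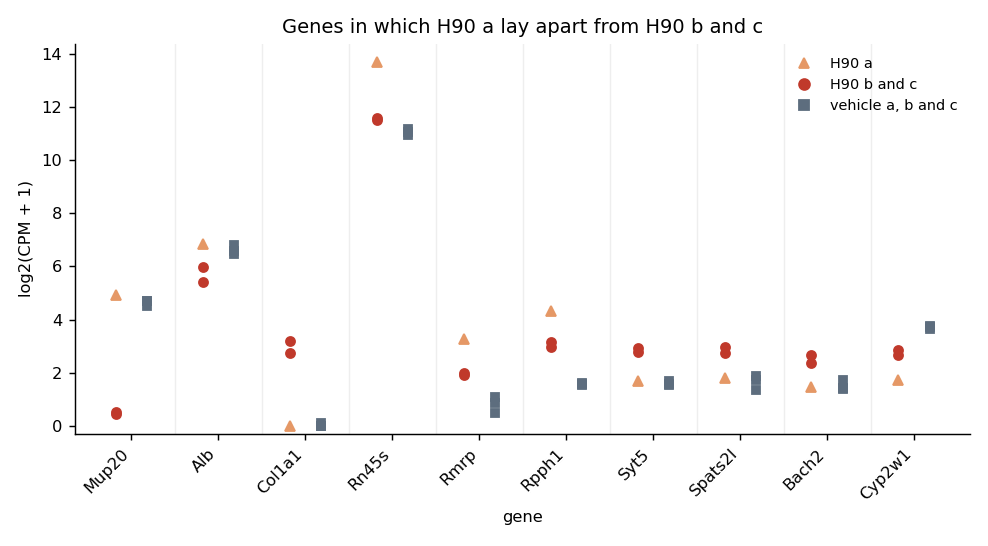
Level of Mup20, Alb and the 8 called genes in which H90 a lay farthest from H90 b and c (1 gene passed over), in each library, as log2(CPM + 1). Each gene has the H90 libraries on the left (triangle for H90 a, circles for H90 b and c) and the vehicle libraries on the right (squares). H90 a sat at or near the vehicle values for Mup20, Col1a1, Syt5, Spats2l and Bach2, and above all other libraries for Rn45s, Rmrp and Rpph1.

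Among the called genes, 8 were picked for the widest gap between H90 a and the other H90 libraries, with 1 gene passed over. Rn45s, the ribosomal RNA precursor, had 13340, 2949 and 3061 CPM in H90 and 2328, 1962 and 2164 CPM in vehicle libraries, and its log2 difference of 1.58 became 0.48 without H90 a. Its call was lost without vehicle a (edgeR adjusted p = 0.103), vehicle b (0.122) or vehicle c (0.103). Rmrp and Rpph1, the RNA parts of RNase MRP and RNase P, which are not polyadenylated like messenger RNA, were also highest in H90 a. Rpph1 had 18.8, 6.72 and 7.79 CPM in H90 and 1.92, 1.95 and 2.02 CPM in vehicle (log2 2.52, and 1.88 without H90 a), and Rmrp had 8.57, 2.93 and 2.79 CPM in H90 and 1.11, 0.82 and 0.387 CPM in vehicle. For the synaptotagmin Syt5, H90 a matched vehicle: 2.23, 6.67 and 5.93 CPM in H90 and 1.86, 1.98 and 2.19 CPM in vehicle. Spats2l and the transcription factor Bach2 showed the same, with H90 a differing from vehicle by 0.18 and -0.05 on the log2 scale. The call of Bach2 was also lost without H90 b (edgeR adjusted p = 0.224), H90 c (0.0549), vehicle b (0.0689) or vehicle c (0.0641), and that of Col1a1 without vehicle b (0.0626). Cyp2w1 had 2.31, 6.29 and 5.25 CPM in H90 and 12.6, 12.2 and 11.4 CPM in vehicle, with H90 a lowest, and its difference was -1.06 on the log2 scale without it, against -1.41 with it. None of the bile acid, fatty acid or retinoid genes described above was among these 8.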

How the data were processed

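Messenger RNA of 15 mouse ileal organoid libraries, 3 in each of 5 groups, was sequenced as poly-A selected TruSeq libraries, per the labels' protocols. The submitters' processing notes name bcl2fastq 2.17, STAR 2.5.2b, featureCounts 1.5.0-p3 and mm10. The annotation, the strand setting and the treatment of reads that match several genes are not given in the sources used here. The authors deposited 1 file of raw counts per gene for each library, with totals of 11245807 to 27136476 in the 6 libraries compared.

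Genes were filtered with filterByExpr, scaled by TMM and fitted with edgeR 4.0.16 (R 4.3.3) in 1 model of 5 group means over the 15 libraries, which leaves 10 residual degrees of freedom. The biological coefficient of variation was 0.0881. The quasi-likelihood F test was two-sided, and p-values were adjusted over 13159 genes with a threshold of 0.05. CPM values use the TMM-scaled totals. The fitting was tested on simulated counts.

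The alternatives were other scalings (library size, RLE, upper quartile), a looser and a stricter filter, DESeq2 1.42.0, limma 3.58.1 voom with common and with per-group weights, the 6 libraries alone, a replicate block, a term for the kind of library (Mup20 above or below 10 CPM), H90 a alone, and each library left out. The members and the 48 gene lists were chosen with earlier results of these data known. Named genes are 8 bile acid genes, the 12 largest rises and 12 largest falls (mean of at least 2 CPM, ranges apart, held without H90 a), up to 6 passing and 4 not passing members of a list, the 8 genes with H90 a farthest from H90 b and c, the 6 highest and 6 lowest against H10, and 4 markers of the kind of library. Members that went against the rest of a list, and Isx, were named after their values were seen. Promoter windows and gene names came from RefSeq tables of GRCm38.p6, the build of mm10. Some members of the lists are not reported here by name.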

Additional observations from a re-analysis of the deposited data

How the results depend on the processing

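The count of changed genes lay within 1.5 times its main value of 2840 under all but 2 of 18 alternatives. Both exceptions take the difference from H90 a: with a term for the kind of library 1069 genes passed (714 higher, 355 lower), and with H90 a alone 1220 (792 higher, 428 lower). Leaving out 1 library at a time gave 2064 to 2956. The replicate block gave 2931, but libraries with the same letter did not deviate together (correlations 0.0164, -0.00446 and -0.00158), so the letters were not taken as pairs. The count of H90 against H10 lay between 3479 and 4995 under the alternatives. Under the block the calls of Rn45s and Guca2b were lost.

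Of 146 named genes, 137 passed in the main test. Over all alternatives, 131 of 2626 values lost their call and 18 changed sign. With H90 a alone or the term for the kind of library the log2 difference became -0.0489 for Bach2 under both, -2.62 and -2.57 for Col1a1, 0.291 and 0.293 for Mup20, 0.247 and 0.249 for Alb, 0.0425 and 0.0441 for Neurog3, and -0.00368 and -0.00178 for Nr1h4. Without 1 library Bcmo1 lay between -0.0848 and 0.0907. Bcmo1 was at -0.0149 with library size scaling, -0.00571 and -0.00545 with limma-voom without and with weights per group, -0.0462 with H90 a alone and -0.0444 with the term for the kind of library. The cause was not tested. Counts limit the scarce genes most, such as Cyp24a1 and Nr0b2.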

Other observations

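Further lists are given beside the shares of all tested genes, 11.7% higher and 9.86% lower. Subunits of the respiratory chain, which passes electrons to oxygen, had 19 members higher and 0 lower of 44, all by small steps (median log2 0.12), and 4 were higher with H90 a alone. Uqcrq, a subunit of complex III, rose by 0.32 (SE 0.05) and Cox5a, a subunit of complex IV, by 0.26 (SE 0.05). Circadian genes had 2 higher and 4 lower of 18, with 1 higher without H90 c or any 1 of the vehicle libraries. Dbp, a clock output factor, had 38.1, 40.3 and 50.5 CPM in H90 and 27.6, 25.3 and 26.7 CPM in vehicle libraries (log2 0.69, SE 0.10, edgeR adjusted p = 7.11e-07), while Arntl (BMAL1) fell by 1.45-fold and did not pass with H90 a alone.

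Repair and YAP genes had 8 members higher and 1 lower of 27, with 5 higher without H90 c. The lower one, the growth receptor antagonist Lrig1, lost its call without H90 a (edgeR adjusted p = 0.0686), H90 b (0.0972) or vehicle c (0.0848). Areg, an EGF receptor ligand, had 96.1, 106 and 115 CPM in H90 and 53.9, 60.01 and 53.4 CPM in vehicle libraries (log2 0.92, SE 0.07, edgeR adjusted p = 3.62e-12), and the related ligand Ereg rose by 0.44 (SE 0.07). Fosl1, an AP-1 subunit, had 4.35, 3.04 and 4.99 CPM in H90 and 2.1, 1.06 and 1.59 CPM in vehicle. Autophagy and lysosome genes had 6 higher and 2 lower of 34, with 1 lower without H90 b or vehicle b, led by the protease Ctsh, which rose by 0.55 (SE 0.06). Tight junction genes had 3 higher and 4 lower of 24, counts that moved to 5 higher without H90 a, 1 higher without H90 c, 1 lower without H90 b and 2 lower without vehicle a, and the pore-forming claudin Cldn2 fell by 1.17-fold. Phase II conjugation enzymes had 13 higher and 2 lower of 32, with 1 lower without H90 a or vehicle b and with the sulfotransferase Sult1d1 rising by 0.44 (SE 0.05) and its relative Sult1c2 falling by 1.84-fold.

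LXR targets had 6 members higher and 0 lower of 14, with 3 higher without vehicle c. Among them the phospholipid enzyme Lpcat3 rose by 0.63 (SE 0.04) and the cholesterol exporter Abca1 had 39.2, 30.9 and 29.9 CPM in H90 and 25.3, 27.8 and 20.2 CPM in vehicle (log2 0.46, SE 0.12, edgeR adjusted p = 0.00509), a call lost without H90 a (0.075) or vehicle c (0.0548). Brush border genes had 11 higher and 4 lower of 26, and amino acid and peptide transporters 6 higher and 5 lower of 24. Their median log2 differences were 0.08 and -0.01. With H90 a alone these were 0.04 and -0.06, and fewer members of both lists passed as higher. Immediate early genes had 6 higher and 2 lower of 31, with 1 lower without H90 a, H90 b or vehicle c. p53 targets had 4 higher and 6 lower of 30, with 3 lower without H90 b. Genes of glycolysis and hypoxia had 6 higher and 1 lower of 30. Their higher count was 13 with no filter, 12 in the 6 libraries alone and 1 with H90 a alone, and the lower one was lost without H90 c, vehicle b or vehicle c.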
